A study of Arabidopsis thaliana with 12 samples.

Results

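The comparison set prt6 erfVII seedlings against wild-type Col-0 seedlings of Arabidopsis thaliana, across all genes with enough counts, to describe which transcripts the sextuple mutant carried at higher or lower levels. It used 8 of the 12 RNAseq libraries of the series, 4 replicates of prt6 erfVII and 4 of Col-0, and the remaining 4 libraries, from the single mutant prt6, entered only where stated. prt6 erfVII carries mutant alleles of PRT6 and of all 5 group VII ethylene response factor genes, namely HRE1, HRE2, RAP2.3, RAP2.2 and RAP2.12. It is a stable insertion line, so every library carried all 6 lesions together and no effect of a single gene can be read from it. Col-0 is the accession the study took as wild type and carries none of these alleles. All seedlings were 7 days old, were grown in continuous light on MS agar, received no further treatment and were harvested whole, with roots and shoots together. The labels call the 4 libraries of a genotype biological replicates but do not say what was independent between them, so the p-values measure the spread between these libraries.

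Group VII ethylene response factors (ERFVIIs) are transcription factors that carry a cysteine behind the initiator methionine. In air, plant cysteine oxidases (PCOs) oxidise this cysteine, arginyl transferases add arginine to it, and the ubiquitin ligase PRT6 marks the protein for the proteasome. When oxygen falls the factors persist and switch on genes of fermentation and sugar use. prt6 erfVII lacks both the ligase and its ERFVII substrates, so differences from Col-0 can reflect either loss, and the 2 cannot be told apart in this comparison.

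Counts on genes per library were 23792267 to 30582461 in prt6 erfVII and 23156637 to 25816881 in Col-0. On the main axis of a principal component analysis, which held 59.97% of the variance, the 4 prt6 erfVII libraries lay between 29.4 and 45.5 and the 4 Col-0 libraries between -40.6 and -35.2, and no library sat with the other genotype. Replicates differed by more than counting error, with a chi-square per degree of freedom of 5.23 to 11.8 between prt6 erfVII libraries and 3.97 to 5.83 between Col-0 libraries. Seed transcripts were unevenly spread over the libraries. The seed storage protein genes CRA1, CRB, CRC and SESA1 to SESA5, summed after their values were seen, had 2668 counts in prt6 erfVII replicate 1 and 266, 45 and 21 in the other prt6 erfVII libraries, against 998, 232, 70 and 1 in Col-0. CRC alone had 714 counts in prt6 erfVII replicate 1 and at most 49 in the other 7 libraries, and in Col-0 replicate 3 nearly all of the 998 counts were of CRA1 (980). For seed transcripts prt6 erfVII replicate 1 stood apart most, and the leading counts are given with and without it.

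The mutated genes were examined before the rest. RAP2.3 had 0.364, 0.928, 0.695 and 0.661 CPM in prt6 erfVII, against 76.1, 80.7, 96.5 and 85.2 CPM in Col-0, where CPM is counts per 1000000 after TMM scaling. HRE1 had 0 counts in every prt6 erfVII library against 90 to 109 counts in Col-0, which is at least 35.0-fold lower, taking 3 counts per library as the limit of counting. HRE2 was too low to be tested, with 2 counts in 1 prt6 erfVII library and 0 in the other 3, against 7 to 32 counts in Col-0. PRT6 had 9.91, 9.11, 7.17 and 9.58 CPM in prt6 erfVII, against 61.7, 64.3, 64.2 and 55.5 CPM in Col-0, a level 6.84-fold lower in the mutant. RAP2.12 had 50.7 ± 2.51 CPM in prt6 erfVII and 94.7 ± 5.13 CPM in Col-0 and RAP2.2 had 57.7 ± 2.13 CPM in prt6 erfVII and 103 ± 4.92 CPM in Col-0 (SD, n = 4 each). No library overlapped the other genotype for RAP2.3, HRE1, PRT6, RAP2.12 or RAP2.2, so each library carried the transcript pattern of its label, although RAP2.12 and RAP2.2 transcripts were still counted in the mutant. Fold changes here and throughout are log2 of Col-0 over prt6 erfVII ± standard error, so a negative value is a gene higher in prt6 erfVII. These were 7.01 ± 0.13 for RAP2.3, 2.77 ± 0.08 for PRT6, 0.90 ± 0.06 for RAP2.12 and 0.84 ± 0.05 for RAP2.2 (edgeR quasi-likelihood test, adjusted p = 8e-19, 4.29e-17, 1.66e-11 and 2.38e-11 in the same order). HRE1 overlaps a gene on the other strand, and so does PRT6, and the sources used here do not say whether reads were counted by strand.

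Of 37885 genes in the table, 20747 had enough counts to be tested. edgeR called 7727 of them different at an adjusted p under 0.05, or 37.2%. Of these, 3837 were higher in prt6 erfVII (18.5% of genes tested) and 3890 were lower (18.7%). Without prt6 erfVII replicate 1 the calls numbered 7537, 3781 of them higher and 3756 lower. Changes were mostly modest, at a median size of 0.39 on the log2 scale among genes higher in prt6 erfVII and 0.475 among genes lower in it, and 578 genes were more than 2-fold higher (2.79% of genes tested) and 624 more than 2-fold lower (3.01%). Beyond 4-fold there were 117 genes higher and 97 lower, and beyond 8-fold 41 higher and 24 lower, more genes on the side of gain in both cases. Libraries of the 2 genotypes did not overlap for 7221 genes, or 34.8%. The median log2 fold change over all genes tested was 0.01 (0.009). Genes annotated as protein-coding made up 19972 of those tested, and of 272 long noncoding RNAs tested 24 were higher and 26 lower in prt6 erfVII. No gene encoded in the plastid or the mitochondrion is listed in the table, so only nuclear genes are described.

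**Figure D1:**
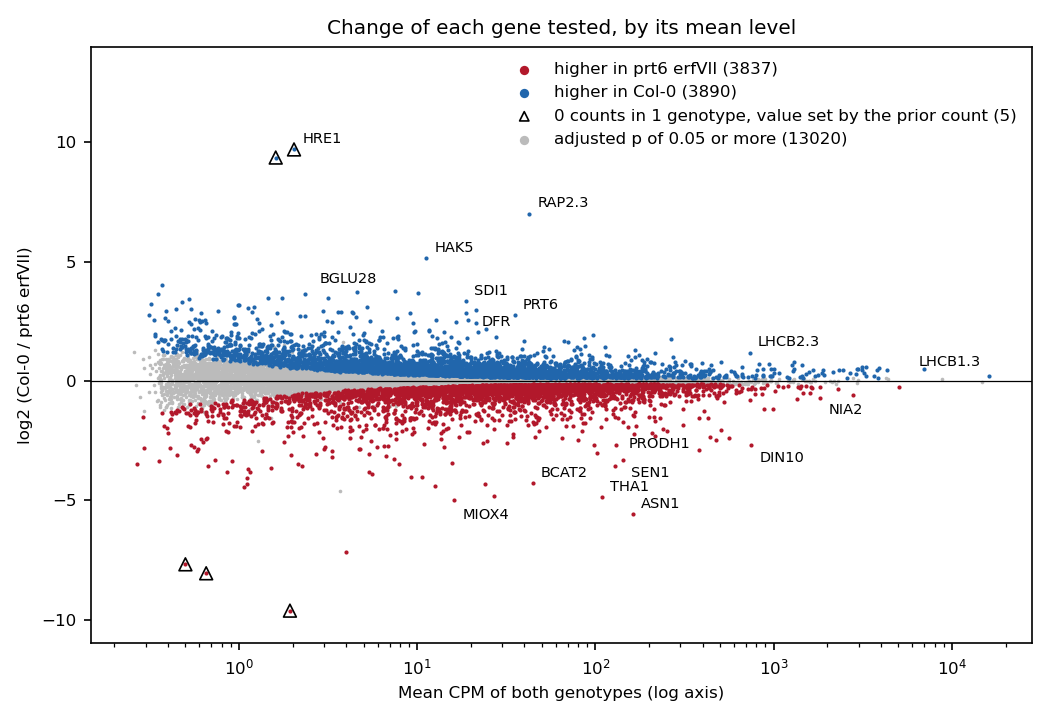
Change of each of the 20747 genes tested, with the mean CPM of both genotypes on the horizontal log axis and log2 (Col-0/prt6 erfVII) on the vertical axis. Red points are the 3837 genes higher in prt6 erfVII, blue points the 3890 genes higher in Col-0, grey points the rest, and open triangles mark the 5 called genes with 0 counts in 1 genotype. ASN1 lies at -5.57 and HAK5 at 5.14, and HAK5 has a lower mean level than ASN1.

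The clearest gain in prt6 erfVII was in genes that plants switch on when sugar or light runs short. Lists and members were chosen with earlier results of these data known. The list counts here and below therefore describe the members and give no independent support for a theme. Each is to be read beside the share over all genes tested, 18.5% higher and 18.7% lower in prt6 erfVII. In continuous light, 22 of 30 tested members of the sugar starvation and dark-induced list were higher in prt6 erfVII and 3 were lower, 18 of the 22 by more than 2-fold, with a median log2 fold change of -1.56 against 0.01 over all genes, and both counts were the same without prt6 erfVII replicate 1. Together the 30 genes took 0.423% to 0.50021% of counts in prt6 erfVII and 0.128% to 0.141% in Col-0. ASN1, the asparagine synthetase known as a marker of darkness and carbon shortage, had 313, 269, 353 and 336 CPM in prt6 erfVII, against 10.13, 6.83, 5.68 and 4.37 CPM in Col-0. The groups were far apart, and the change of 47.4-fold (-5.57 ± 0.23, edgeR adjusted p = 2.38e-06) was the largest among called genes with a mean above 100 CPM in either genotype. DIN10, a raffinose synthase family gene induced in the dark, had 1192, 1239, 1410 and 1321 CPM in prt6 erfVII, against 215, 207, 203 and 179 CPM in Col-0. Among called genes only GRP3S gained more in CPM. DIN10 was 6.42-fold higher (-2.68 ± 0.07, edgeR adjusted p = 1.14e-18). SEN1, a senescence and dark marker, averaged 259 ± 43.6 CPM in prt6 erfVII and 26.0 ± 4.35 CPM in Col-0 (SD, n = 4 each), a log2 fold change of -3.31 ± 0.16 (edgeR adjusted p = 1.65e-06). MIOX4, a myo-inositol oxygenase, had 29.2, 27.1, 35.5 and 32.8 CPM in prt6 erfVII, against 0.687, 0.976, 1.15 and 1.05 CPM in Col-0, or 31.8-fold more in prt6 erfVII (edgeR adjusted p = 4.3e-18). ASN1 and DIN10 each overlap a gene on the other strand, as does BCAT2 below.

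Other members, here named after their values were seen, were higher too. They included ATL8 (-2.87), MIOX2 (-2.67), DIN2 (-2.63), a beta-glucosidase, BGAL4 (-1.92), a beta-galactosidase, the class II trehalose-phosphate synthase-like genes TPS8 to TPS11 (between -1.88 and -1.15), GDH2 (-1.54), which takes nitrogen off glutamate, and KINB1 (-1.26), a subunit of the SnRK1 energy-sensing kinase. Among the S1- and C-group bZIP factors that act beneath SnRK1, BZIP1 (-1.66) and BZIP63 (-0.97) were higher in prt6 erfVII, while BZIP11, whose translation sucrose represses, was lower. BZIP11 averaged 19.9 ± 2.28 CPM in prt6 erfVII and 29.1 ± 1.80 CPM in Col-0 (SD, n = 4 each, 0.55 ± 0.08, edgeR adjusted p = 7.29e-06). TPS5, another trehalose-phosphate synthase-like gene, was lower at 21.4 CPM in prt6 erfVII and 39.9 CPM in Col-0 (0.90 ± 0.09, edgeR adjusted p = 1.08e-07), and DIN11 was lower at 0.78 ± 0.28 (edgeR adjusted p = 0.0284), a call lost without any of 4 of the 8 libraries. Of the 6 ATG8 genes of autophagy on the list, ATG8E was higher in prt6 erfVII (-0.68) and the other 5 did not pass the test, with values between -0.17 (ATG8B) and 0.22 (ATG8G).

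**Figure D2:**
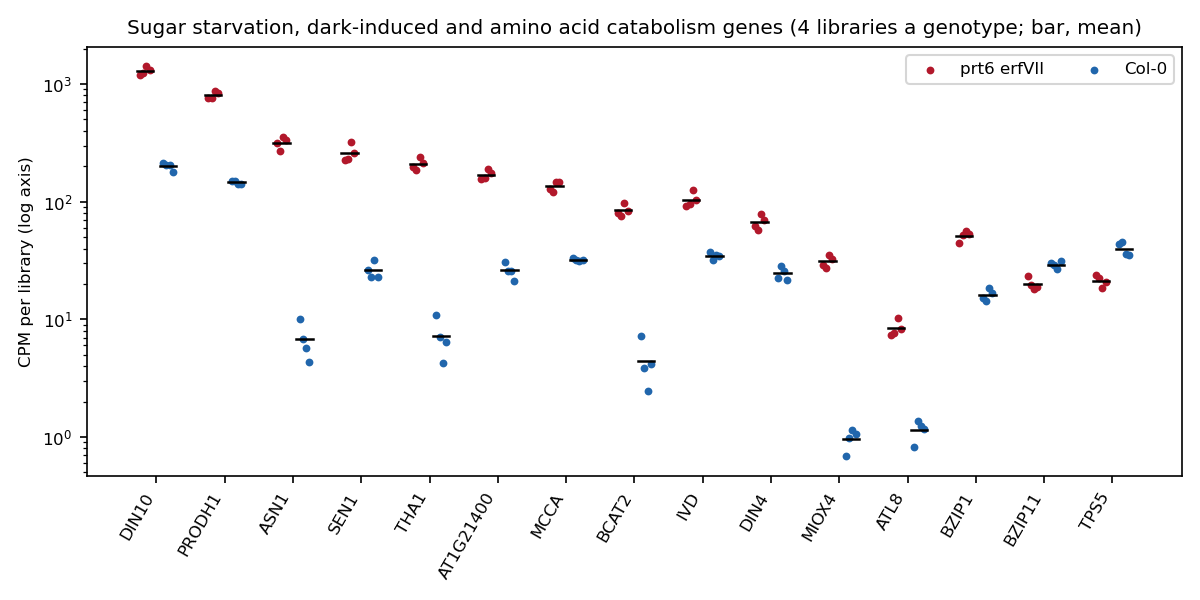
CPM in each library, on a log axis, for 15 genes of sugar starvation, darkness and amino acid breakdown, with the 4 prt6 erfVII libraries in red on the left and the 4 Col-0 libraries in blue on the right of each gene, and the mean as a bar. The genotypes do not overlap for any of the 15 genes, which were all called genes, against 34.8% of all genes tested. ASN1 lies at 269 CPM or more in prt6 erfVII and at 10.13 CPM or less in Col-0, and BZIP11 and TPS5 lie lower in prt6 erfVII.

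The breakdown of branched-chain amino acids, which feeds mitochondrial respiration when carbohydrate is short, changed with them. Of 15 tested genes, 13 were higher in prt6 erfVII and 1 was lower, or 93.3% called against 37.2% over all genes. Their median was -1.11. BCAT2, a branched-chain aminotransferase, had 80.8, 75.8, 97.7 and 83.6 CPM in prt6 erfVII, against 7.21, 3.87, 2.46 and 4.14 CPM in Col-0, or 19.3-fold more (edgeR adjusted p = 1.65e-05). Its next step is the branched-chain ketoacid dehydrogenase, whose E1 alpha subunit gene AT1G21400 had 156, 158, 188 and 174 CPM in prt6 erfVII, against 31.0, 26.0, 25.7 and 21.3 CPM in Col-0 (-2.70 ± 0.10, edgeR adjusted p = 1.74e-11). The other E1 alpha gene, AT5G09300, moved the other way, with 7.45 ± 0.958 CPM in prt6 erfVII and 10.6 ± 0.981 CPM in Col-0 (SD, n = 4 each, 0.51 ± 0.11, edgeR adjusted p = 0.00102). MCCA, the alpha subunit of methylcrotonyl-CoA carboxylase in leucine breakdown, averaged 136 ± 13.3 CPM in prt6 erfVII and 32.0 ± 0.829 CPM in Col-0 (SD, n = 4 each, -2.08 ± 0.07, edgeR adjusted p = 7.42e-17). Further down, IVD, isovaleryl-CoA dehydrogenase, stood at -1.58, DIN4, an E1 beta subunit, at -1.44, and ETFQO, which passes the electrons to ubiquinone, at -1.11.

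Other amino acid genes moved in the same direction. PRODH1, the proline dehydrogenase that begins proline breakdown, had 756, 760.0, 867 and 835 CPM in prt6 erfVII, against 151, 151, 141 and 142 CPM in Col-0 (5.51-fold more in prt6 erfVII, edgeR adjusted p = 8e-19). Its close relative AT5G38710 was also higher (-0.77 ± 0.19, edgeR adjusted p = 0.00277). P5CDH, which completes the breakdown, had 83.2 CPM in prt6 erfVII and 81.1 CPM in Col-0 with no call (-0.04 ± 0.06, edgeR adjusted p = 0.669). The synthesis genes split, with P5CS1 lower (0.5001 ± 0.06) and P5CS2 higher (-0.54 ± 0.05) in prt6 erfVII (edgeR adjusted p = 1.4e-06 and 1.62e-08). THA1, a threonine aldolase that turns threonine into glycine, had 198, 184, 240.4 and 215 CPM in prt6 erfVII, against 10.8, 7.11, 4.26 and 6.44 CPM in Col-0 (-4.88 ± 0.24, edgeR adjusted p = 7.27e-06). GAT1_2.1, a class I glutamine amidotransferase-like gene, averaged 52.2 ± 8.74 CPM in prt6 erfVII and 1.87 ± 0.484 CPM in Col-0 (SD, n = 4 each, -4.81 ± 0.16, edgeR adjusted p = 2.22e-11). AT3G15450, annotated as an aluminium-induced protein with YGL and LRDR motifs, was among the 8 genes with the largest gain in CPM, at 947 ± 110.1 CPM in prt6 erfVII and 179.8 ± 24.7 CPM in Col-0 (SD, n = 4 each, edgeR adjusted p = 3.35e-08).

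Because so many of these genes moved together, the 250 bases before each annotated gene start were read from TAIR10.1, whose nuclear chromosomes carry the TAIR10 coordinates, for short elements tied in the literature to sugar, light or sulfur. The elements, searched on both strands, were the G-box CACGTG, the sugar-repressed element TATCCA, the proline-responsive element ACTCAT, the sulfur-responsive core GAGAC and the I-box GATAAG. The sugar-repressed element stood in 9 of 30 promoters of the sugar starvation list (30.0%) and in 5 of 15 of the branched-chain list (33.3%), against 14.2% of the 19971 tested protein-coding genes. It also stood in 8 of 21 promoters of the light-harvesting antenna (38.1%), a list that was lower in prt6 erfVII. The I-box stood in 11 of 30 (36.7%) and in 3 of 15 (20%), against 12.4%. The G-box stood in 3 of 30 and 0 of 15, against 7.40%, and the proline-responsive element in 4 of 30 and 2 of 15, against 11.8%. The I-box and the sugar-repressed element can share letters, and did in 1 starvation promoter. ASN1 held 3 of the elements and BCAT2 1, while the window of DIN10 held none of the 5. The promoters of ASN1 (chr3:17441432-17441681, minus strand, where it overlaps the gene AT3G47341) and BCAT2 (chr1:3287837-3288086, plus strand) are shown 5′ to 3′ as examples of the strongest gains, with matches to the G-box, the sugar-repressed element and the I-box on either strand in capitals. A match is a run of letters and was not tested as a binding site.
ASN1: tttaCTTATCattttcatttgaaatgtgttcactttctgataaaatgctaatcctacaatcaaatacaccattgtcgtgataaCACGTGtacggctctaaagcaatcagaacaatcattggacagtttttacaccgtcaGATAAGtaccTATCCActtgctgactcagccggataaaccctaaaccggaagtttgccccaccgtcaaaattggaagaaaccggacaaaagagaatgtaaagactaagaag
BCAT2: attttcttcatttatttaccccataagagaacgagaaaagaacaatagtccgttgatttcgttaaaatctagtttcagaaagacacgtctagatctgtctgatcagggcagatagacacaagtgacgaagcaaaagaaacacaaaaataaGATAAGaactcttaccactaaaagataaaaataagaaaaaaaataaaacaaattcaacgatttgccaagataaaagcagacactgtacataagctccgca

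The 8 largest losses in CPM in prt6 erfVII were all in the light-harvesting antenna, the chlorophyll-binding proteins that gather light for the photosystems. Of 21 tested antenna genes 18 were lower in prt6 erfVII and 1 was higher, or 90.5% called against 37.2% over all genes. Their median was 0.46. Together they took 4.92% to 6.03% of counts in prt6 erfVII and 7.12% to 7.65% in Col-0. LHCB1.5 had 4927, 5747, 6278 and 5964 CPM in prt6 erfVII, against 7664, 8550, 8234 and 8445 CPM in Col-0, the largest loss in CPM of any gene (0.52 ± 0.06, edgeR adjusted p = 7.74e-07). LHCA4, an antenna protein of photosystem I, had 2647, 3346, 3449 and 3256 CPM in prt6 erfVII, against 4226, 4680, 4779 and 4789 CPM in Col-0 (0.54 ± 0.07, edgeR adjusted p = 3.74e-06). LHCB2.3 changed most in ratio, with 338, 526, 466 and 459 CPM in prt6 erfVII, against 929, 1068, 995 and 1090 CPM in Col-0, or 2.28-fold less (edgeR adjusted p = 9.88e-05). LHCB1.3, the most abundant of them, had 13538, 14918, 16183 and 15745 CPM in prt6 erfVII, against 17601, 17619, 16605 and 17430 CPM in Col-0, a small loss of 0.20 ± 0.06 (edgeR adjusted p = 0.00803). LHCB7, a rarely expressed member, was the exception on the higher side (-0.23 ± 0.08, edgeR adjusted p = 0.0305), and its call was lost without any of 5 libraries, prt6 erfVII replicate 1 among them. The LHCB1 genes are near-identical copies and the authors kept uniquely mapped reads, so the split among LHCB1.1 to LHCB1.5 is uncertain. In whole seedlings fewer cells of a type and less RNA per cell cannot be told apart, and the share of green tissue was not measured.

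Subunits of the photosystems and their electron carriers were lower in prt6 erfVII for 23 of 28 tested genes and higher for 0. That is 82.1% called against 37.2% over all genes, and the median was 0.275. Without prt6 erfVII replicate 1 there were 20 lower and 0 higher. The largest were PSBQ2 of photosystem II (976 CPM in prt6 erfVII and 1572 CPM in Col-0, 0.69 ± 0.05), PSAD2 of photosystem I (533 CPM in prt6 erfVII and 799 CPM in Col-0, 0.59 ± 0.06) and PSAH2 (828.9 CPM in prt6 erfVII and 1188 CPM in Col-0, 0.52 ± 0.05), with edgeR adjusted p = 2.32e-10, 3.94e-08 and 3.08e-08. Carbon fixation did not follow. Of 22 tested Calvin cycle and photorespiration genes 1 was higher and 2 were lower, or 13.6% called against 37.2% over all genes, and their median was 0.001. Without prt6 erfVII replicate 1 the counts were 3 higher and 1 lower. The summed level of those 22 genes was 5.36% to 5.92% of counts in prt6 erfVII and 5.54% to 5.69% in Col-0, which overlap. The 3 called were CFBP1, the plastid fructose bisphosphatase (0.16 ± 0.05), and the Rubisco small subunit genes RBCS2B (0.14 ± 0.06) and RBCS1B (-0.20 ± 0.06), with edgeR adjusted p = 0.0101, 0.0433 and 0.0138. RBCS2B lost its call without any of 6 libraries and RBCS1B without 1.

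**Figure D3:**
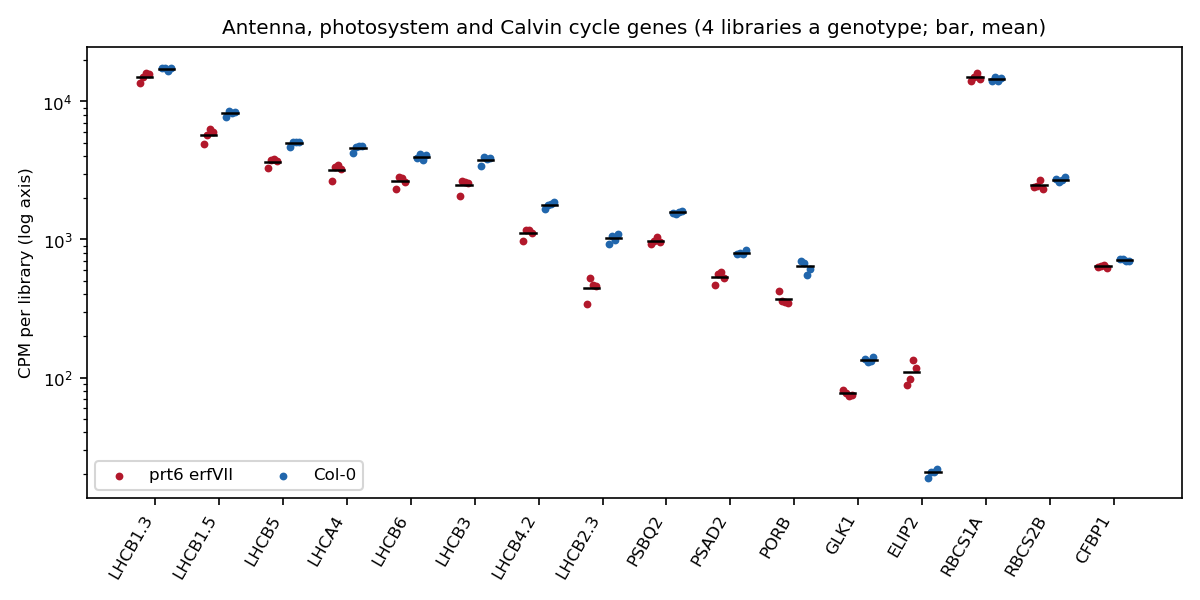
CPM in each library, on a log axis, for 16 antenna, photosystem, chlorophyll, greening and Calvin cycle genes, with the 4 prt6 erfVII libraries in red on the left and the 4 Col-0 libraries in blue on the right of each gene, and the mean as a bar. The antenna genes from LHCB1.3 to LHCB2.3 all lie lower in prt6 erfVII, RBCS1A and RBCS2B overlap between genotypes, and ELIP2 lies at 88.6 CPM or more in prt6 erfVII and 21.9 CPM or less in Col-0.

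Of 19 tested chlorophyll genes 2 were higher and 3 lower in prt6 erfVII, or 26.3% called against 37.2% over all genes. Without prt6 erfVII replicate 1 there were 4 higher and 3 lower. The 2 light-driven protochlorophyllide oxidoreductases with high expression, PORB and PORC, were lower, at 371 ± 34.5 CPM in prt6 erfVII and 638 ± 67.2 CPM in Col-0 for PORB and 157 ± 2.73 CPM in prt6 erfVII and 221 ± 10.9 CPM in Col-0 for PORC (SD, n = 4 each, edgeR adjusted p = 1.43e-07 and 4.32e-08). CAO, which makes chlorophyll b, was lower by a little (0.22 ± 0.06), and the breakdown genes NYC1 (-0.48 ± 0.08) and NYE2 (-1.003 ± 0.34) were higher, with edgeR adjusted p = 0.00849, 0.000191 and 0.0214. The call of NYE2, at about 1 CPM, was lost without any of 3 libraries. Among light signalling and greening factors 8 of 14 were higher and 2 lower, or 71.4% called. GLK1, a factor that drives antenna and chlorophyll genes, had 81.4, 77.6, 73.9 and 74.4 CPM in prt6 erfVII, against 136, 130.2, 132 and 141 CPM in Col-0 (0.81 ± 0.05, edgeR adjusted p = 2.56e-11), and its partner GLK2 did not pass the test (-0.06). ELIP2, an early light-induced protein, had 88.6, 97.5, 133 and 117 CPM in prt6 erfVII, against 18.8, 20.6, 20.7 and 21.9 CPM in Col-0 (5.31-fold more, edgeR adjusted p = 1.01e-07), whereas ELIP1 stood at -0.05 with no call. GATA22, a greening factor, was higher (-1.12 ± 0.09), and the phytochrome-interacting factors split, with PIF3 higher (-0.77 ± 0.07) and PIF4 lower (0.73 ± 0.07) in prt6 erfVII, at edgeR adjusted p = 1.69e-09, 4.21e-09 and 7.34e-09.

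The circadian clock, sampled here in continuous light at a time of day the labels do not give, had 9 of 23 genes higher and 3 lower in prt6 erfVII, where 18.5% of all genes were higher and 18.7% lower. The 2 pseudo-response regulators PRR5 and PRR7 moved most, at 29.9 ± 2.00 CPM in prt6 erfVII and 16.8 ± 2.48 CPM in Col-0 for PRR5 and 56.7 ± 2.00 CPM in prt6 erfVII and 32.7 ± 4.18 CPM in Col-0 for PRR7 (SD, n = 4 each, edgeR adjusted p = 1.76e-07 and 1.03e-08). RVE4 was higher as well (-0.60 ± 0.06, edgeR adjusted p = 4.11e-08). CDF1 (0.48 ± 0.13), RVE8 (0.25 ± 0.09) and GI (0.19 ± 0.07) were lower, with edgeR adjusted p = 0.00483, 0.039 and 0.0266, and the calls of RVE8 and GI were lost without any of 6 and of 4 libraries. The core oscillator genes CCA1, LHY and TOC1 were called higher in prt6 erfVII with small changes (-0.29, -0.21 and -0.40).

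On the side of loss, the sulfur starvation response was lower in prt6 erfVII without exception, with 13 of 13 tested genes called, 8 of them by more than 2-fold, and a median of 1.39. These genes rise when sulfate is short, and some of them are driven by the factor SLIM1. SDI1, which holds back glucosinolate synthesis under sulfur shortage, had 4.26, 2.40, 3.00 and 3.57 CPM in prt6 erfVII, against 34.4, 30.8, 31.3 and 39.7 CPM in Col-0 (10.2-fold less, edgeR adjusted p = 1.15e-13). BGLU28, a thioglucosidase that frees sulfur from glucosinolates, had 1.603, 0.590, 1.09 and 0.793 CPM in prt6 erfVII, against 15.9, 13.2, 10.7 and 16.4 CPM in Col-0 (13.6-fold less, edgeR adjusted p = 2.86e-10). GGCT2;1, which recycles glutamate from glutathione, had 3.02, 1.43, 2.17 and 2.18 CPM in prt6 erfVII, against 15.0, 16.8, 13.9 and 18.5 CPM in Col-0 (2.85 ± 0.16, edgeR adjusted p = 4.64e-12). The response also covered, in genes named after their values were seen, LSU1 (2.56) and LSU2 (2.19), the sulfate transporters SULTR1;1 (1.73), SULTR1;2 (0.71) and SULTR4;2 (1.39), and the sulfate reduction genes APR1 (1.06), APR2 (0.72) and APR3 (0.75).

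The GAGAC core stood in 3 of 13 promoters of the list (23.1%), against 25.4% of tested protein-coding genes, so the 250-base windows held it about as often as any. SDI1 (chr5:19807854-19808103, minus strand) and BGLU28 (chr2:18346056-18346305, plus strand) are shown because they fell most, with the core, or its reverse complement, in capitals. It begins 23 bases before the annotated start of SDI1 and 115 bases before that of BGLU28.
SDI1: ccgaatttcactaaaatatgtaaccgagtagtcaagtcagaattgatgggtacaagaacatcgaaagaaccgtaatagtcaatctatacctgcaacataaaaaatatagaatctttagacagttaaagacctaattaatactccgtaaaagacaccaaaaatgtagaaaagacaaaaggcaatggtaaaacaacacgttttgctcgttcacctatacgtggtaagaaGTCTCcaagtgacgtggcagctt
BGLU28: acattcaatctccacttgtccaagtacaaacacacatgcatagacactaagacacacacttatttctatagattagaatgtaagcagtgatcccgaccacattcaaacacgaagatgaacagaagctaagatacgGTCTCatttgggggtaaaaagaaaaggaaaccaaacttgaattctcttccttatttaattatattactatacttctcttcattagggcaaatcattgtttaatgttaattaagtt

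Glucosinolates are the sulfur-rich defence compounds of this family, and their genes were lower in prt6 erfVII as well. Of 30 tested pathway genes 27 were lower and 1 was higher, or 93.3% called against 37.2% over all genes. Their median was 0.62. TGG2, a myrosinase, had 157, 120.4, 126 and 133 CPM in prt6 erfVII, against 314, 291, 301 and 289 CPM in Col-0 (1.16 ± 0.07, edgeR adjusted p = 1.37e-11). GSTF11 (0.86 ± 0.12) and CYP79F2 (0.83 ± 0.07), both of the methionine-derived branch, were next, with edgeR adjusted p = 3.31e-06 and 1.06e-09. Of the MYB factors that run the pathway, named after their values were seen except MYB51, MYB28 (0.77), MYB29 (0.45) and MYB34 (0.81) were lower and MYB76 did not pass the test (-0.02). MYB51, of the indolic branch, was higher. MYB51 averaged 20.04 ± 0.944 CPM in prt6 erfVII and 10.8 ± 1.07 CPM in Col-0 (SD, n = 4 each, -0.89 ± 0.09, edgeR adjusted p = 2.86e-08).

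In the flavonoid pathway 16 of 24 tested genes were lower and 2 were higher in prt6 erfVII, or 75.0% called against 37.2% over all genes. The largest losses were in the late steps that make anthocyanins. DFR, dihydroflavonol reductase, had 4.84, 5.99, 2.65 and 5.45 CPM in prt6 erfVII, against 36.4, 47.2, 29.0 and 38.5 CPM in Col-0 (7.91-fold less, edgeR adjusted p = 3.93e-05). UGT79B1, which adds a sugar to anthocyanins, had 0.983, 1.52, 0.521 and 1.35 CPM in prt6 erfVII, against 8.37, 12.5, 6.06 and 10.7 CPM in Col-0 (3.09 ± 0.28, edgeR adjusted p = 1.38e-06). PAP1, the MYB factor that switches these genes on, had 0.401, 0.506, 0.261 and 0.396 CPM in prt6 erfVII, against 2.104, 3.94, 2.03 and 3.47 CPM in Col-0 (2.87 ± 0.31, edgeR adjusted p = 9.84e-08). LDOX (2.86), 5MAT (2.83), GSTF12 (2.09), PAP2 (1.79) and TT8 (1.36), named after their values were seen, were also lower. MYBL2, a repressor of the pathway, was higher, with 63.8, 68.8, 86.0 and 69.3 CPM in prt6 erfVII, against 26.3, 36.3, 37.98 and 34.1 CPM in Col-0 (-1.09 ± 0.12, edgeR adjusted p = 4.63e-05). CHS, chalcone synthase of the first step, averaged 528 ± 25.8 CPM in prt6 erfVII and 478 ± 35.8 CPM in Col-0 (SD, n = 4 each) and its libraries overlapped. Its call on the higher side (-0.14 ± 0.06, edgeR adjusted p = 0.0484) was lost without any of 6 libraries and with library totals as the only scaling. In 250-base promoters CACGTG stood in 7 of 24 genes of the pathway (29.2%), against 7.40% of tested protein-coding genes. The match is shown for DFR (chr5:17166033-17166282, minus strand), where it begins 14 bases before the annotated start, together with a GAGAC match, both in capitals.
DFR: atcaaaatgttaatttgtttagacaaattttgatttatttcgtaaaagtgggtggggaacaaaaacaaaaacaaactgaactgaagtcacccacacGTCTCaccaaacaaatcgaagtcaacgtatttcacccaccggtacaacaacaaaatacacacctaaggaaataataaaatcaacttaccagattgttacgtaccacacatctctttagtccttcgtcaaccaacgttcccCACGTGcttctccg

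**Figure D4:**
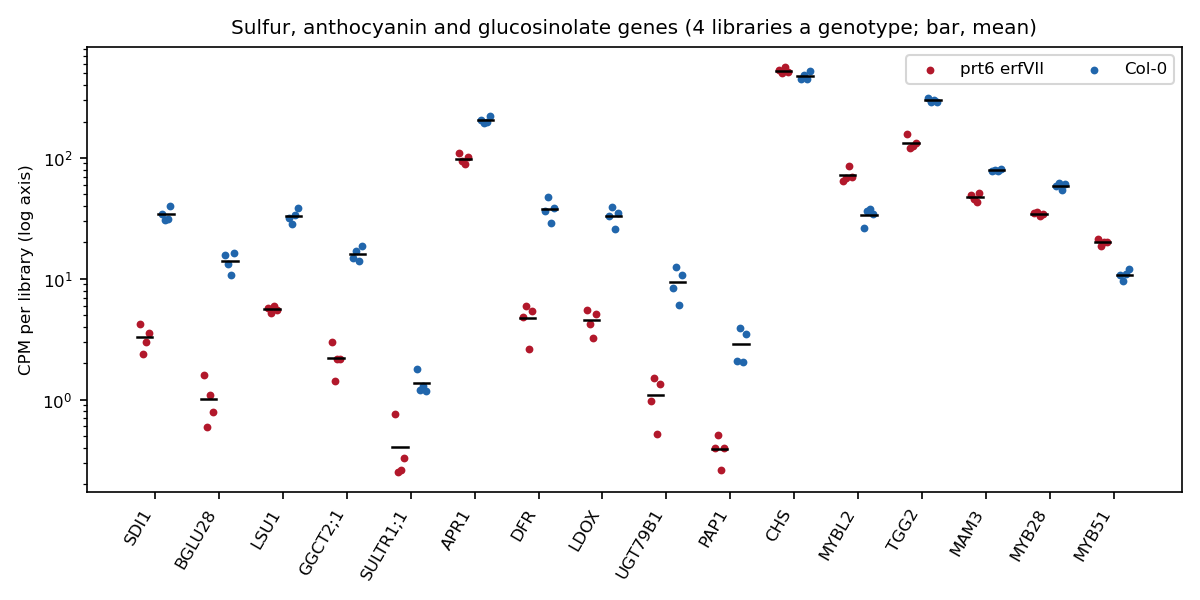
CPM in each library, on a log axis, for 16 genes of sulfur starvation, anthocyanins and glucosinolates, with the 4 prt6 erfVII libraries in red on the left and the 4 Col-0 libraries in blue on the right of each gene, and the mean as a bar. SDI1 lies at 4.26 CPM or less in prt6 erfVII and 30.8 CPM or more in Col-0, MYBL2 and MYB51 lie higher in prt6 erfVII, and the genotypes overlap only for CHS. All 16 were called genes, and 34.8% of all genes tested did not overlap.

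Other nutrients gave a mixed picture. HAK5, the high-affinity potassium transporter of potassium-starved roots, had 0.510, 1.05, 0.695 and 0.297 CPM in prt6 erfVII, against 22.9, 19.2, 18.4 and 26.9 CPM in Col-0, or 35.2-fold less in prt6 erfVII (5.14 ± 0.22, edgeR adjusted p = 3e-11), the largest loss of any gene that was not itself mutated and had reads in every library. Of 14 tested phosphate starvation genes 9 were lower and 0 higher, or 64.3% called against 37.2% over all genes, with a median of 0.455. Among those lower were PS2, a pyrophosphatase (1.70 ± 0.34), MGD2, a galactolipid synthase (0.93 ± 0.13), and PAP17, an acid phosphatase (0.80 ± 0.14), at edgeR adjusted p = 0.000333, 4.64e-06 and 0.000946. Root hair markers, listed further on, were lower in the same libraries, with 10 of 13 called and 0 called higher, and their part in these losses was not tested. In nitrate assimilation 9 of 17 were higher and 7 lower, or 94.1% called against 37.2% over all genes. Both nitrate reductases were higher, NIA1 at 679 ± 29.0 CPM in prt6 erfVII and 371 ± 25.9 CPM in Col-0 and NIA2 at 2254 ± 79.2 CPM in prt6 erfVII and 1391 ± 53.6 CPM in Col-0 (SD, n = 4 each, edgeR adjusted p = 1.89e-11 and 1.69e-10), as were LBD38 (-0.73 ± 0.06) and the MYB-like factor AT1G68670 (-0.86 ± 0.07), at edgeR adjusted p = 2.08e-09 and 3.51e-10. The genes that supply reducing power to nitrite reductase in roots were lower, RFNR2 at 62.4 CPM in prt6 erfVII and 165 CPM in Col-0 (1.404 ± 0.06), RFNR1 (0.61 ± 0.07) and the glucose-6-phosphate dehydrogenase G6PD3 (0.73 ± 0.07), at edgeR adjusted p = 2.03e-14, 7.18e-08 and 1.26e-08.

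Iron genes were higher more often than lower, 11 against 3 of 23, where 18.5% of all genes were higher and 18.7% lower. The 4 group Ib bHLH factors of the iron deficiency response led them. BHLH100 had 34.9, 44.7, 50.9 and 70.1 CPM in prt6 erfVII, against 10.09, 10.6, 18.1 and 17.3 CPM in Col-0 (-1.83 ± 0.30, edgeR adjusted p = 0.00384). BHLH101 (-1.68 ± 0.27) and BHLH38 (-1.41 ± 0.22) followed, at edgeR adjusted p = 0.00168 and 0.0022, and BHLH39 stood at -1.17. The nicotianamine synthases NAS2 (0.73 ± 0.15), NAS4 (0.45 ± 0.10) and NAS1 (0.43 ± 0.06), which make an iron chelator, were lower, at edgeR adjusted p = 0.00517, 0.00206 and 2.56e-06. IRT1, the root iron importer, was higher by a little (-0.39), and the iron storage gene FER1 was higher too (-0.83).

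The 49 core hypoxia genes, which rise in low oxygen across cell types and include direct ERFVII targets, did not move one way. Of 45 tested, 15 were higher and 10 lower in prt6 erfVII, with a median of -0.16, where 18.5% of all genes were higher and 18.7% lower. The fermentation genes ADH1 (0.67) and PDC1 (0.497) were lower, while PDC2 stood at 0.06 with no call (edgeR adjusted p = 0.603). Also lower were SUS4, a sucrose synthase, and AHB1, a non-symbiotic haemoglobin (0.69). SUS4 averaged 1.42 ± 0.208 CPM in prt6 erfVII and 3.13 ± 0.347 CPM in Col-0 (SD, n = 4 each, 1.15 ± 0.20, edgeR adjusted p = 9.71e-05). The largest losses were AT4G17670, a DUF581 gene (1.57 ± 0.21), and SAD6, an acyl carrier protein desaturase (1.37 ± 0.25), at edgeR adjusted p = 2e-06 and 0.000125. Against these, AT1G19530 had 19.96, 20.2, 32.7 and 22.7 CPM in prt6 erfVII, against 1.37, 0.586, 1.61 and 0.937 CPM in Col-0 (21.1-fold more, edgeR adjusted p = 2.32e-07). AT4G39675 (-3.08 ± 0.30) and AT1G33055 (-2.30 ± 0.27) were higher as well, at edgeR adjusted p = 6e-06 and 3.87e-07. The list shares EXL1 with the sugar starvation list (-1.99). PCO1 (-0.56 ± 0.26, edgeR adjusted p = 0.0974), PCO2 (0.53 ± 0.31, edgeR adjusted p = 0.187) and LBD41 (-0.04), often used to report hypoxia, did not pass the test.

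Of 11 tested genes of the oxygen-sensing N-degron pathway itself 2 were called, both higher in prt6 erfVII, or 18.18% against 18.5% of all genes called higher. Without prt6 erfVII replicate 1 there were 3 higher. PCO5 averaged 21.6 ± 2.29 CPM in prt6 erfVII and 15.8 ± 1.19 CPM in Col-0 (SD, n = 4 each, -0.45 ± 0.09, edgeR adjusted p = 0.000201). ATE1, an arginyl transferase, stood at -0.25 ± 0.08 (edgeR adjusted p = 0.0128), and its call was lost without Col-0 replicate 4. PCO3, PCO4, ATE2, BIG and the substrate VRN2 had log2 fold changes between -0.10 (BIG) and 0.055 (ATE2), with adjusted p of 0.456 or more, and the substrate ZPR2 and the regulator HRA1 stood at 0.69 ± 0.40 and 0.36 ± 0.16 with no call (edgeR adjusted p = 0.183 and 0.0783). Ethylene genes, linked to ERFVII stability in flooding, were higher for 9 of 19 and lower for 1, or 52.6% called against 37.2% over all genes. ACO5, an ACC oxidase of the final step of ethylene synthesis (-0.93 ± 0.13), and the receptor ETR2 (-0.60 ± 0.11) were higher, at edgeR adjusted p = 0.000149 and 9.33e-05, and ACS5, an ACC synthase at under 1 CPM, was lower (2.49 ± 0.46, edgeR adjusted p = 0.000132).

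Among stress and defence hormones the jasmonate and abscisic acid lists leaned to loss, where 18.7% of all genes were lower and 18.5% higher. Of 16 tested jasmonate genes 8 were lower and 3 higher, and without prt6 erfVII replicate 1 there were 9 lower and 1 higher. VSP2, a vegetative storage protein, had 0.947, 1.56, 1.26 and 1.16 CPM in prt6 erfVII, against 7.17, 7.34, 7.21 and 9.48 CPM in Col-0 (6.37-fold less, edgeR adjusted p = 2.86e-11), VSP1 stood at 2.06 ± 0.15 (edgeR adjusted p = 8.31e-10), and LOX2, a lipoxygenase of jasmonate synthesis, averaged 120.0 ± 35.5 CPM in prt6 erfVII and 410.5 ± 52.2 CPM in Col-0 (SD, n = 4 each, edgeR adjusted p = 0.00104). JAZ9 (-0.44 ± 0.07), LOX4 (-0.64 ± 0.20) and JAZ1 (-0.33 ± 0.10) were higher, at edgeR adjusted p = 2.35e-05, 0.0176 and 0.018, and the calls of LOX4 and JAZ1 were lost without any of 2 and of 4 libraries. Of 22 tested abscisic acid, cold and drought genes 12 were lower and 4 higher, led by the cold genes COR15A (1.18 CPM in prt6 erfVII and 4.61 CPM in Col-0, 1.97 ± 0.21), COR15B (1.41 ± 0.20) and KIN1 (1.38 ± 0.14), at edgeR adjusted p = 1.21e-07, 5.11e-06 and 8.27e-08. KIN1 and KIN2 are near-identical, so their split is uncertain. CYP707A3, which breaks down abscisic acid, was higher (-1.08 ± 0.17), with HAB1, a phosphatase that holds back the response (-0.45 ± 0.07), and LTI30, a dehydrin (-0.29 ± 0.07), at edgeR adjusted p = 2.96e-05, 9.33e-06 and 0.00334. Relatives of CYP707A3 and HAB1, named after their values were seen, went the other way. CYP707A1 (0.796), AHG3 (0.747), ABI2 (0.446) and HAB2 (0.294) were lower, at edgeR adjusted p = 5.45e-05, 3.13e-09, 0.00499 and 0.00125. The phosphatase genes ABI1 (-0.079) and HAI1 (0.631) did not pass the test.

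Of 13 tested salicylic acid genes 2 were higher and 2 lower, or 30.8% called against 37.2% over all genes, and without prt6 erfVII replicate 1 there were 3 higher and 3 lower. The genes called were CBP60G (-0.74 ± 0.14) and NPR1 (-0.26 ± 0.07) higher and PR5 (0.83 ± 0.14) and EDS5 (0.56 ± 0.11) lower, at edgeR adjusted p = 0.000311, 0.00437, 6.84e-05 and 0.000189. Heat shock genes were 4 higher and 1 lower of 8 tested, or 62.5% called. The factors DREB2A (10.6 CPM in prt6 erfVII and 4.18 CPM in Col-0, -1.34 ± 0.12) and HSFA7A (25.6 CPM in prt6 erfVII and 10.7 CPM in Col-0, -1.25 ± 0.09) and the chaperone HSP90.1 (-0.49 ± 0.10) were higher. HSP18.2 was lower (1.16 ± 0.29), at edgeR adjusted p = 8.27e-09, 2.01e-10, 0.000602 and 0.00258. The mitochondrial retrograde list was 3 higher and 3 lower of 11, or 54.5% called against 37.2% over all genes. Its usual reporter AOX1A, the alternative oxidase, stood at 0.02 with no call. SOT12 (-0.48 ± 0.08), NAC017 (-0.24 ± 0.06) and NDA1 (-0.24 ± 0.06) were higher, and AT5G09570 (1.92 ± 0.37), NDB4 (1.504 ± 0.41) and NDA2 (0.39 ± 0.11) lower, at edgeR adjusted p = 4.42e-05, 0.00186, 0.00247, 0.000223, 0.0057 and 0.0057.

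Of 17 tested cell cycle genes 11 were lower and 0 higher in prt6 erfVII, or 64.7% called against 37.2% over all genes, with a median of 0.42. Among those lower were CDKB1;1 (0.66 ± 0.12), CYCB1;4 (0.63 ± 0.10) and CYCD3;1 (0.57 ± 0.07), at edgeR adjusted p = 0.000161, 2.68e-05 and 5.57e-07. The expansins and xyloglucan enzymes that loosen cell walls divided, 8 higher and 13 lower of 24, or 87.5% called. XTH24 had 384, 374, 472 and 414 CPM in prt6 erfVII, against 99.8, 97.6, 99.4 and 87.5 CPM in Col-0 (4.28-fold more, edgeR adjusted p = 1.42e-15), and XTH22 (-1.51 ± 0.13) and XTH23 (-1.05 ± 0.12) were higher too, at edgeR adjusted p = 6.33e-06 and 2.17e-07. XTH19 (1.13 ± 0.11) and the expansins EXPA15 (1.07 ± 0.06) and EXPA4 (0.99 ± 0.06) were lower, at edgeR adjusted p = 2.91e-08, 4.82e-12 and 2.38e-11. Of 21 auxin response genes 9 were lower and 2 higher, where 18.7% of all genes were lower and 18.5% higher. Without prt6 erfVII replicate 1 there were 6 lower and 2 higher. YUC9 of auxin synthesis (1.396 ± 0.34, near 1 CPM) and the SAUR genes SAUR22 (0.996 ± 0.34) and SAUR21 (0.89 ± 0.17) were lower, at edgeR adjusted p = 0.00228, 0.0253 and 0.000214. The division among the near-identical SAURs is uncertain. IAA2 (-0.80 ± 0.08) and GH3.5 (-0.30 ± 0.08) were higher, at edgeR adjusted p = 1.12e-06 and 0.00438. The call of SAUR22 was lost without any of 4 libraries.

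Ribosome genes did not share the direction of the cell cycle list. The cytosolic ribosomal protein list was drawn by text match to the annotated product, and takes in family names such as that of AT1G53560. Of its 82 tested genes 12 were higher and 2 lower in prt6 erfVII, or 17.1% called against 37.2% over all genes, with a median of -0.04. AT1G53560 (-0.44 ± 0.11), RPL18AA (-0.38 ± 0.08) and AT5G23900 (-0.35 ± 0.05) were the most increased, at edgeR adjusted p = 0.0025, 0.000676 and 1.21e-05. AT4G26230, an L31e family gene, stood apart with 32.3, 42.3, 40.8 and 38.7 CPM in prt6 erfVII, against 129, 138, 131 and 135 CPM in Col-0 (3.46-fold less, edgeR adjusted p = 2.4e-15). It overlaps AT4G26240 on the other strand. The other member called lower was AT5G15520 (0.33 ± 0.11, edgeR adjusted p = 0.0181), whose call was lost without any of 3 libraries and with a length and GC offset. Of 8 nucleolar genes of ribosome assembly FIB1 (-0.26 ± 0.06) was higher, PES stood at -0.20 ± 0.06 and was also called, and NUC1, NOP56, AT5G27120, APUM24, FIB2 and NAP57 did not pass, at edgeR adjusted p = 0.00143 for FIB1, 0.0113 for PES and 0.0542 or more for the rest.

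Markers of single cell types were read as transcript levels only, since in whole seedlings fewer cells of a type and less RNA per cell cannot be told apart. Root hair markers were lower for 10 of 13 tested genes and higher for 0, or 76.9% called against 37.2% over all genes. Their median was 0.94, and their summed level was 44.4 to 58.4 CPM in prt6 erfVII against 92.1 to 124 CPM in Col-0. PRP3, a root hair wall protein, had 7.43, 7.13, 7.64 and 5.45 CPM in prt6 erfVII, against 20.4, 19.2, 23.0 and 24.0 CPM in Col-0 (1.65 ± 0.11, edgeR adjusted p = 2.86e-11). AGP3 (1.27 ± 0.17) and RSL4, a factor that drives hair growth (1.26 ± 0.29), followed, at edgeR adjusted p = 1.92e-05 and 0.00137. Endodermis and suberin markers had 1 higher (MYB36, -0.58 ± 0.18, edgeR adjusted p = 0.0128) and 1 lower (ESB1, 0.18 ± 0.06, edgeR adjusted p = 0.0261) of 8. CASP1, CASP2, GPAT5, CYP86A1 and ASFT did not pass the test and stood between -0.14 (GPAT5) and 0.28 (CASP2). The list had a summed level of 149.99 to 166 CPM in prt6 erfVII and 141 to 168 CPM in Col-0. Xylem markers had 1 of 10 called, LAC4 (-0.26 ± 0.09, edgeR adjusted p = 0.0317), with 149 to 163 CPM in prt6 erfVII and 138 to 167 CPM in Col-0. The calls of ESB1, MYB36 and LAC4 were lost without any of 4, of 1 and of 5 libraries.

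In the shoot, guard cell markers gave 1 higher and 3 lower of 7, or 57.1% called against 37.2% over all genes. The potassium and anion channel genes SLAC1 (1.01 ± 0.21), KAT1 (0.75 ± 0.10) and KAT2 (0.74 ± 0.13) were lower and CYP86A2 (-0.21 ± 0.06) higher, at edgeR adjusted p = 0.000567, 1.22e-06, 9.71e-05 and 0.00396. FAMA, which sets guard cell identity (-0.05 ± 0.09), GORK (0.33 ± 0.15) and MYB60 (-0.18 ± 0.09) did not pass, at edgeR adjusted p = 0.673, 0.0794 and 0.108. Of the shoot meristem markers STM (-0.22 ± 0.19) and KNAT1 (0.18 ± 0.12) did not pass (edgeR adjusted p = 0.391 and 0.254), and WUS and CLV3 were too low to be tested, WUS with at most 1 count in any library. Of 23 seed maturation and reserve genes 11 were tested and 1 was called, ICL, the isocitrate lyase of reserve use. ICL had 76.5, 68.1, 103 and 66.4 CPM in prt6 erfVII, against 27.3, 3.75, 32.8 and 8.78 CPM in Col-0 (-2.12 ± 0.60, edgeR adjusted p = 0.0342), and its call was lost without any of 6 of the libraries, among them prt6 erfVII replicate 1, the library with the most seed storage transcripts (edgeR adjusted p = 0.0646). Col-0 libraries spread over a wide range for this gene. Of the floral organ genes AP1, AP3 and AG were too low to be tested, with at most 9 counts in any library, whereas PI had 9.76, 10.7, 11.8 and 9.15 CPM in prt6 erfVII, against 2.88, 0.898, 0.959 and 1.48 CPM in Col-0 (-2.75 ± 0.26, edgeR adjusted p = 2.97e-06) and SEP3 averaged 5.61 ± 1.32 CPM in prt6 erfVII and 2.60 ± 0.408 CPM in Col-0 (SD, n = 4 each, -1.10 ± 0.18, edgeR adjusted p = 3.42e-05).

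The list counts can be set side by side in the plot of members by list. It runs from the sugar starvation list, with a median of -1.56, through the Calvin cycle list at 0.001, to the sulfur starvation list at 1.39. The triterpene gene clusters at the foot of the plot were added after values had been seen.

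**Figure D5:**
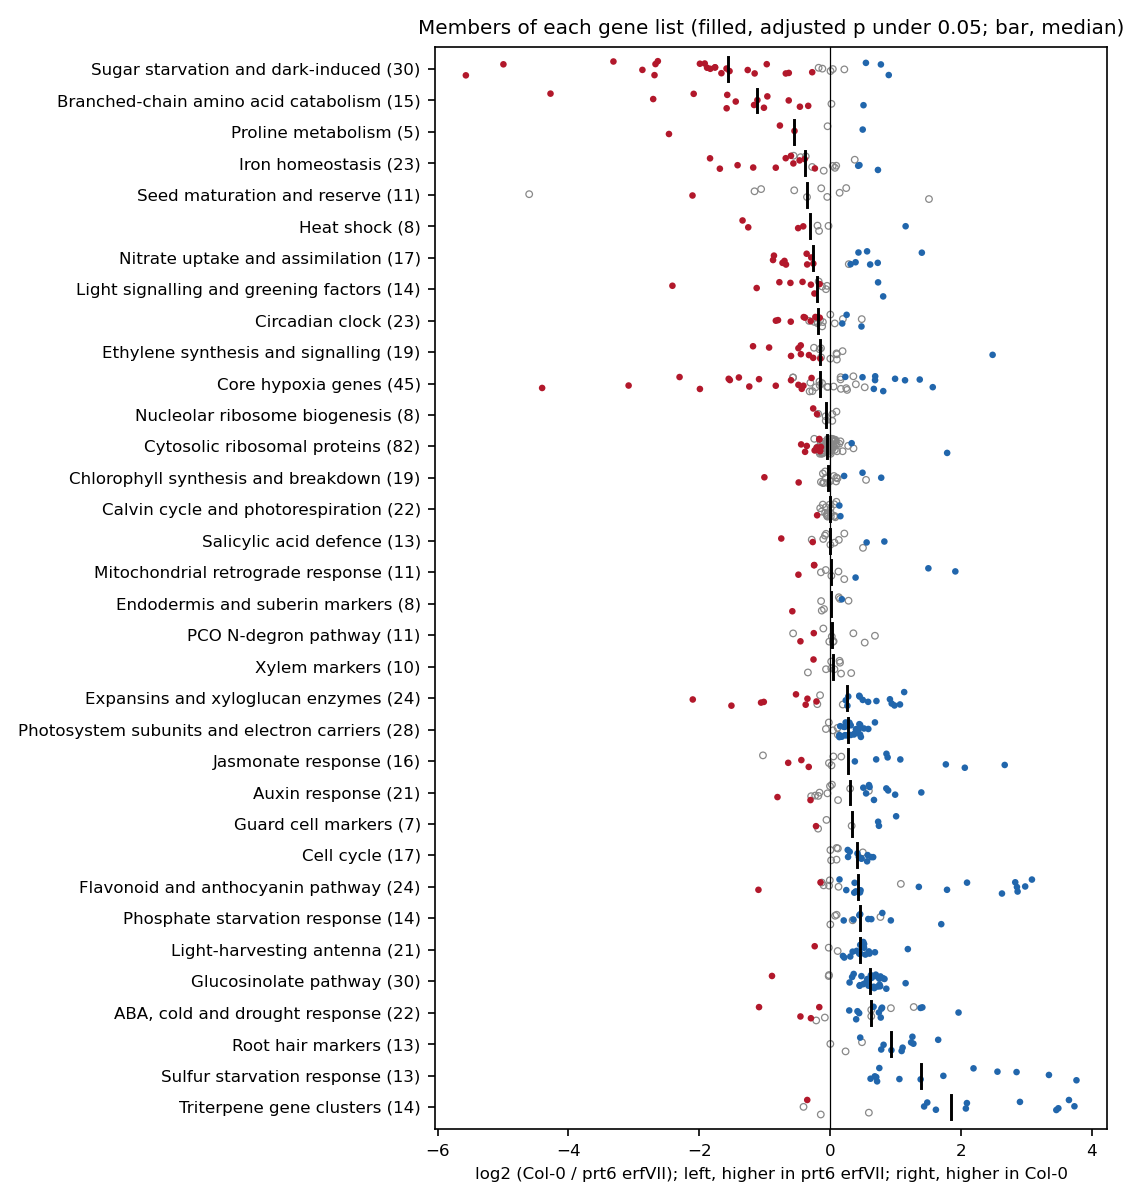
Members of 34 gene lists with 5 or more tested genes, with log2 (Col-0/prt6 erfVII) on the horizontal axis, lists ordered by median from the highest in prt6 erfVII at the top, and the number tested in parentheses. Red filled points were called higher in prt6 erfVII, blue filled points lower, open points were not called, and the black bar is the median. The sugar starvation list at the top has a median of -1.56 and the sulfur starvation list near the bottom one of 1.39.

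Beyond the lists, the genes with the largest folds were often of low level or of unknown function. On the side of gain AT3G30695, annotated as a pseudogene, had 82 to 122 counts in prt6 erfVII and 0 in every Col-0 library, at least 32.3-fold higher, and its neighbour AT3G30690 had 23 to 31 counts against 0, at least 8.38-fold higher. AT2G18190, a P-loop nucleoside triphosphate hydrolase gene, had 25 to 46 counts against 0, at least 10.95-fold higher. In the prt6 libraries AT3G30695 and AT3G30690 also had 0 counts, and AT2G18190 had 3 to 36. AT2G01422, a noncoding RNA, had 7.83, 7.34, 10.4 and 6.24 CPM in prt6 erfVII, against 0, 0.156, 0.0384 and 0 CPM in Col-0 (-7.18 ± 0.38, edgeR adjusted p = 3e-12). AT2G04050, a MATE efflux transporter, had 43.0, 47.9, 53.4 and 37.9 CPM in prt6 erfVII, against 2.75, 2.89, 1.15 and 2.26 CPM in Col-0 (-4.33 ± 0.20, edgeR adjusted p = 4.99e-08). M10, a late embryogenesis abundant gene (-4.45 ± 0.79), and AT1G15330, of the CBS domain family (-4.33 ± 0.49), completed the 12 largest gains, at edgeR adjusted p = 0.000727 and 1.84e-07, together with ASN1, MIOX4, THA1, GAT1_2.1 and AT1G19530 described above. M10 had 4.55, 0.633, 1.91 and 1.09 CPM in prt6 erfVII, against 0, 0.117, 0.0767 and 0.156 CPM in Col-0, highest in prt6 erfVII replicate 1, the library rich in seed transcripts, and stood at -3.69 without it (edgeR adjusted p = 2.42e-05).

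On the side of loss NUDT24, a nudix hydrolase, had 0 counts in every prt6 erfVII library against 43 to 116 in Col-0, at least 27.6-fold lower. AT5G04120, of the phosphoglycerate mutase family, had 1.06, 0.169, 1.04 and 3.20 CPM in prt6 erfVII, against 15.3, 10.9, 22.2 and 26.5 CPM in Col-0 (3.69 ± 0.61, edgeR adjusted p = 0.00375). MRN1, marneral synthase, had 0.546, 0.506, 0.651 and 0.826 CPM in prt6 erfVII, against 8.54, 8.16, 10.5 and 7.14 CPM in Col-0 (3.74 ± 0.19, edgeR adjusted p = 5.37e-13). PEN3, another triterpene synthase, stood at 3.49 ± 0.39 and its neighbour AT5G36130, a cytochrome P450, at 3.65 ± 0.42 (edgeR adjusted p = 4.11e-07 and 8.35e-06). CYP710A4, a cytochrome P450 (4.02 ± 0.69), AT4G12170, a thioredoxin superfamily gene (3.63 ± 0.75), and FLA6, a fasciclin-like arabinogalactan protein (3.46 ± 0.32), completed them, at edgeR adjusted p = 4.18e-05, 0.000363 and 7.44e-09, with 1.27 CPM or less of CYP710A4 and AT4G12170 in any library. Among abundant genes, the remaining gains in CPM were GRP3S, a glycine-rich protein (3376 ± 483 CPM in prt6 erfVII and 2229 ± 79.2 CPM in Col-0), PYK10, the main beta-glucosidase of root ER bodies (5469 ± 386 CPM in prt6 erfVII and 4571 ± 263 CPM in Col-0), TCTP (1703 ± 186 CPM in prt6 erfVII and 997 ± 53.8 CPM in Col-0) and the RNA AT3G06365 (1376 ± 443 CPM in prt6 erfVII and 609 ± 120.4 CPM in Col-0, SD, n = 4 each), at edgeR adjusted p = 1.74e-05, 0.00104, 9.06e-09 and 0.0128. The remaining losses were LHCB5 (0.45 ± 0.06), LHCB6 (0.59 ± 0.06), LHCB3 (0.60 ± 0.07), LHCB1.2 (0.46 ± 0.06) and LHCB1.4 (0.52 ± 0.06), with edgeR adjusted p of 2.18e-06 or less.

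Changes were not gathered around the mutated loci. Within 1 Mb on each side, 35.65% of 359 tested genes were called near PRT6, 35.7% of 392 near RAP2.12, 38.4% of 466 near RAP2.2, 39.4% of 454 near RAP2.3, 37.4% of 476 near HRE1 and 36.4% of 291 near HRE2, against 37.2% over all genes. Genes called beyond 4-fold made up 0.279% to 1.29% of those windows, against 1.03% of all genes tested.

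The single mutant prt6, which keeps its ERFVIIs, gives the levels of some of these genes without PRT6 alone. It is described by values only, since it was not part of the test, on a scale common to all 12 libraries. ASN1 ranged over 5.995 to 18.02 CPM in prt6, BCAT2 over 3.28 to 8.80 CPM, DIN10 over 256 to 372 CPM and PRODH1 over 243 to 303 CPM, so each lay under all prt6 erfVII libraries. SDI1 ranged over 35.7 to 70.7 CPM, BGLU28 over 10.3 to 22.6 CPM and MRN1 over 7.07 to 8.95 CPM, and each lay above all prt6 erfVII libraries. LHCB2.3 ranged over 590.03 to 738 CPM and HAK5 over 7.88 to 14.4 CPM, between the levels of prt6 erfVII and of Col-0. AT1G19530, a core hypoxia gene, did so too, at 9.71 to 14.6 CPM. SAD6 and AT1G33055, also core hypoxia genes, lay above all libraries of both. SAD6 ranged over 73.4 to 107 CPM in prt6, against 1.22 to 2.54 CPM in prt6 erfVII and 3.12 to 5.41 CPM in Col-0. AT1G33055 ranged over 14.8 to 19.98 CPM in prt6, against 2.93 to 5.12 CPM in prt6 erfVII and 0.356 to 1.06 CPM in Col-0. ETR2, at 12.1 to 14.2 CPM in prt6, overlapped prt6 erfVII. Some other antenna genes were not between prt6 erfVII and Col-0. LHCB1.4 ranged over 2284 to 2603 CPM in prt6 and 2148 to 2632 CPM in prt6 erfVII, which overlap, against 3315 to 3640 CPM in Col-0. LHCB1.3 likewise ranged over 14079 to 15395 CPM in prt6 and 13796 to 16305 CPM in prt6 erfVII, against 16861 to 17871 CPM in Col-0.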

How the data were processed

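RNA was sequenced from whole 7-day-old seedlings of 4 prt6 erfVII and 4 Col-0 replicates, and 4 prt6 replicates were used where stated. According to the study's methods, the authors trimmed reads, aligned them with HISAT2 2.1.0 to TAIR10, kept uniquely and correctly mapped reads and deposited raw counts per gene from featureCounts 1.6.0. The strand setting is not given in the sources used here, and 53 of 221 named genes overlap a gene on the other strand. Samples were grouped by their labels.

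Counts were tested with the edgeR 4.0.16 quasi-likelihood test (R 4.3.3, TMM scaling, filterByExpr, robust fit, 8 libraries), with Benjamini-Hochberg adjustment over all genes tested and a threshold of 0.05. With 4 libraries a genotype, on data simulated for the Col-0 against prt6 erfVII comparison, edgeR recovered 99 of 100 genes changed by 1 on the log2 scale and 100 of 100 changed by 2, among 20541 genes tested, with 11 false calls. Only 200 genes were changed in the simulation, all of them well counted, far fewer than were called in the data. It therefore does not give the recovery of smaller changes or of genes with low counts. A fold against a genotype with 0 counts took 3 counts per library as its floor, which covers counting error only.

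Named genes were the mutated and N-degron genes, the 12 largest folds and the 8 largest CPM differences in each direction, and up to 3 called members in each direction per list (all members for lists of 8 genes or fewer). Any others are said to have been chosen after their values were seen. Some genes that meet this rule are not reported here. Members and lists were chosen with earlier results of these data known. Alternatives were DESeq2 1.42.0, other scalings and filters, a length and GC offset, a replicate block, all 12 libraries, stricter thresholds and leaving out each library. Gene names and promoters came from the RefSeq annotation of TAIR10.1.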

Additional observations from a re-analysis of the deposited data

Results flagged for a closer look

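In 20 of 431 groups of 4 libraries 1 library lay far from the other 3 (gap over range above 0.829), and chance alone gives about 1 in 20 groups. In prt6 erfVII replicate 1, LHCB3 had 2052 CPM, against 2559 to 2656 in the other 3 libraries, AT4G17670 2.22 (others 1.26 to 1.35), PORB 422 (others 349 to 359), GATA22 17.96 (others 21.8 to 22.6) and HSFA7A 22.04 (others 26.5 to 27.3). In prt6 erfVII replicate 3, SAD6 had 2.52 CPM (others 1.202 to 1.26), SLAC1 3.43 (others 1.78 to 1.88), AT5G15520 11.5 (others 15.3 to 16.1), BCB 288 (others 219 to 226) and DTX1 63.0 (others 51.4 to 52.9). In prt6 erfVII replicate 4, AGP3 had 3.44 CPM (others 6.51 to 7.00).

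In Col-0 replicate 3, HRA1 had 3.76 CPM (others 5.89 to 6.21), AT4G12170 1.27 (others 0.429 to 0.468), FLA6 3.76 (others 2.23 to 2.46), LTI30 31.3 (others 27.5 to 27.9) and RSL4 1.496 (others 1.91 to 1.99). In Col-0 replicate 4, NDA1 had 98.8 CPM (others 86.9 to 87.7), VSP2 9.48 (others 7.17 to 7.34) and NAS4 45.3 (others 54.5 to 55.8). In Col-0 replicate 1, LHCB5 had 4705 CPM (others 5064 to 5122).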

How the results depend on the processing

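The total of 7727 calls was 7660 in DESeq2, 7736 with RLE size factors, 7822 without a filter on low counts, 7698 with a mean of at least 10 counts, 8139 with a length and GC offset, 7291 in one fit over 12 libraries and 7633 with library totals only, where 46.2% of calls were higher in prt6 erfVII, against 49.7%. Requiring a fold above 1.5 left 1161 genes, 626 higher and 535 lower. Leaving out each library gave 6628 to 7537 calls, 3296 to 3781 higher and 3332 to 3756 lower, and 529 to 610 more than 2-fold higher and 587 to 690 more than 2-fold lower. Of 186 called named genes, 18 lost the call without 1 library and 0 changed direction. PEN1, among the 18, also lost it in DESeq2, and AT5G15520 with the length and GC offset.

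Among the named genes, only uncalled ones changed direction. VRN2 stood at 0.006 with library totals only. Without 1 library VRN2 ranged from -0.075 to 0.026, PCO3 from -0.022 to 0.097, ATE2 from -0.003 to 0.144, BIG from -0.161 to 0.015, FIB2 from -0.001 to 0.21, NOP56 from -0.042 to 0.1 and NAP57 from -0.023 to 0.095. The cause was not tested.

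With a replicate block the calls numbered 8406, 4205 higher and 4201 lower, and 8657 with the block and the length and GC offset. Deviations of same-numbered libraries correlated at 0.0728, 0.1774, 0.1283 and -0.0375, and those of differently numbered libraries between -0.1626 and 0.1392. Whether same-numbered libraries shared a batch was not tested, and the main test did not pair them.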

Other observations

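Several groups outside the lists were noticed after their values were seen. Of 52 tested WRKY transcription factors, a family of defence and senescence regulators, 31 were higher and 2 lower in prt6 erfVII, with a median of -0.44, against 37.2% of all genes called. Of 40 tested UMAMIT transporters, which move amino acids, 18 were lower and 2 higher, with a median of 0.35. Of 42 arabinogalactan protein genes 21 were lower and 6 higher, and of 88 DNAJ and chaperone genes 23 were higher and 5 lower. Of 43 MATE efflux genes 14 were higher and 17 lower, and of 49 class III peroxidases 15 were higher and 14 lower. Over all genes 18.5% were higher and 18.7% lower. The 14 triterpene cluster genes, which include MRN1 and PEN3, had 10 lower and 1 higher, with a median of 1.85, and summed to 116 to 184 CPM in prt6 erfVII and 351 to 465 CPM in Col-0.

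Neighbouring genes changed together at a few places. BCB, a blue copper-binding protein, lies 1155 bases before PI, which lies 2048 bases before DIN10, on chromosome 5, and all 3 were higher in prt6 erfVII. BCB averaged 239 ± 33.2 CPM in prt6 erfVII and 20.5 ± 6.22 CPM in Col-0 (SD, n = 4 each, -3.54 ± 0.22, edgeR adjusted p = 2.69e-05). DTX1 (-2.59 ± 0.08), next to AT2G04050 described above, was also higher (edgeR adjusted p = 6.41e-17). QQS, a gene found only in Arabidopsis thaliana and tied to starch level, had 26.7, 32.0, 29.8 and 26.5 CPM in prt6 erfVII, against 2.104, 2.73, 2.61 and 3.04 CPM in Col-0 (-3.45 ± 0.11, edgeR adjusted p = 1.06e-16).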
